A study of Mus musculus with 6 samples.

Results

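Interferon-stimulated genes are the transcripts that cells switch on when an interferon binds its receptor. A list of 39 such genes was followed in heart ventricles of dystrophic mice, and 36 of them were measured among the 30063 genes of the table. A gene was taken where the array annotation gave a transcript cluster (a group of probes for 1 locus) exactly 1 symbol, and of several clusters the brightest over the 6 arrays counted. Irf1 alone among the members had a second cluster of its own. Ifi27 and Gbp5 lay in clusters with several symbols, and no cluster was named Ifi44 here, so these 3 genes have no value.

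The samples were ventricles of 6 male mice of 20 weeks, 1 Affymetrix array per mouse. Finerenone was fed to 3 mice at 100 ppm in chow from 4 weeks of age, and 3 untreated mice ate that chow without the drug. Finerenone is a non-steroidal antagonist of the mineralocorticoid receptor. All 6 mice, of the C57BL/10 background, lacked dystrophin (mdx) and had 1 functional utrophin allele, a model of Duchenne cardiomyopathy, and no wild-type heart was analysed here. The comparison therefore sets the drug against its absence within the dystrophic genotype only. Values are log2 signals that the authors made with RMA, a method that corrects background, normalizes arrays and summarises probes. The arrays correlated between 0.989 and 0.994 with each other, and untreated replicate 1 had the lowest mean correlation with the rest, 0.990.

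Type I interferons (the alpha and beta forms) act through the receptor Ifnar1 and Ifnar2 and the kinases Jak1 and Tyk2. A transcription factor complex that holds Stat2 and Irf9 then binds a DNA motif, the interferon-stimulated response element, and induces antiviral genes such as the Ifit, Oas, Mx and Isg15 families. Interferon gamma acts through Ifngr1 and Ifngr2, and the guanylate-binding proteins and immunity-related GTPases are textbook targets of that arm, although many genes answer to both. In the heart these genes are known from viral myocarditis and from macrophages that sense nucleic acids after injury.

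The promoters of Ifit1, Bst2, Gbp2 and Gbp3 are shown because these 4 members had the smallest p-values of the list. Each line gives the 150 bases before the annotated start (RefSeq, mouse assembly GRCm38.p6) on the strand of the gene, and capitals mark the core letters of the response element, GAAA, any 2 bases and GAAA again, or their reverse complement. Ifit1 lies at chr19:34640739-34640888 on the plus strand, Bst2 at chr8:71537473-71537622 on the minus strand, Gbp2 at chr3:142620513-142620662 and Gbp3 at chr3:142559894-142560043, both on the plus strand.
Ifit1: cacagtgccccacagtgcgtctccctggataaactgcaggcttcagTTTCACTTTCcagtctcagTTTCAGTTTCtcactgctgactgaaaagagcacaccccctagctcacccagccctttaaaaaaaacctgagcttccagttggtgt
Bst2: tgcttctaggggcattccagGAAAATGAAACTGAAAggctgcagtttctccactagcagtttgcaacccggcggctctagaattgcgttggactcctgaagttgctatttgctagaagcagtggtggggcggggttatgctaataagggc
Gbp2: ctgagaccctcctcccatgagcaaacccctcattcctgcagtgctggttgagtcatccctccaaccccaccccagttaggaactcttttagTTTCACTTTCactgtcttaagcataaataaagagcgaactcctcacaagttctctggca
Gbp3: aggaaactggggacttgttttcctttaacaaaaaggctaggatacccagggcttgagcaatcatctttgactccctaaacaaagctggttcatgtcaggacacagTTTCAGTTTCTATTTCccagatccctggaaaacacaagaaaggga
Ifit1 held 2 separate copies, which began 104 and 85 bases before the start. Bst2 held 2 overlapping copies, at 130 and 124 bases before its start. Gbp2 held 1 copy, at 59 bases. Gbp3 has 2 windows in the table, and the one shown held overlapping copies at 45 and 39 bases.

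This response element core (GAAA, any 2 bases, GAAA) was searched on both strands of windows from 250 bases before to 50 bases after each start. It occurred in 17 of the 28 members with such a window, against 3.99% of 27025 genes. The letters TTCNNNGAA, the palindrome that STAT dimers bind, occurred in 9 of the 28 members and in 9.55% of genes. A match describes the letters in the window and does not show that a factor binds there. Oas2, Zbp1, Mx1, Parp14, Dhx58, Rtp4, Usp18 and Mx2 had no window. Of the 17 members with the core, 13 had higher mean signal in finerenone hearts, with a median log2 difference of 0.13. Of the 11 members with a window but without the core, 8 were higher, with a median of 0.05. Over all genes 58.2% were higher, with a median of 0.03. Whether the core bears on the differences was not tested.

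No interferon-stimulated gene passed the test between finerenone and untreated ventricles, and most differences were small and positive. Of the 36 members, 27 had higher and 9 lower mean signal in finerenone hearts, where 58.2% of all genes were higher. The median log2 difference of the members was 0.09, and that of all genes was 0.03. The antiviral genes Ifit1 and Bst2 and the guanylate-binding proteins Gbp2 and Gbp3 had the smallest p-values, with differences of 0.29 to 0.81. Isg15, Mx1, Mx2 and Oas3, classical antiviral members, lay below the median of the negative controls on every array, and their differences of -0.08 to 0.02 are at a signal not told from background.

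Differences were tested with limma over all 30063 genes, two-sided, with Benjamini-Hochberg adjustment at 0.05. At that threshold 0 of the 36 members and 0% of all genes passed, and the smallest adjusted p in limma was 0.597. At an unadjusted p below 0.05 limma gave 2 members, Ifit1 and Bst2, both higher. Over all genes 7.81% reached that level, 5.69% higher and 2.12% lower, so 2 of 36 is near the background. The finerenone arrays all lay above the untreated arrays for 4 members, Ifit1, Bst2, Gbp2 and Oas1a, against 8.17% of all genes. For 0 members did they all lie below, against 4.17% of genes. With 3 arrays per group, the median SD of a member within a group was 0.16 in finerenone and 0.14 in untreated hearts. Differences well above that size were not told from 0 either. The 95% intervals of 34 members included 0, that of Gbp2 with its difference of 0.53 among them.

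**Figure D1:**
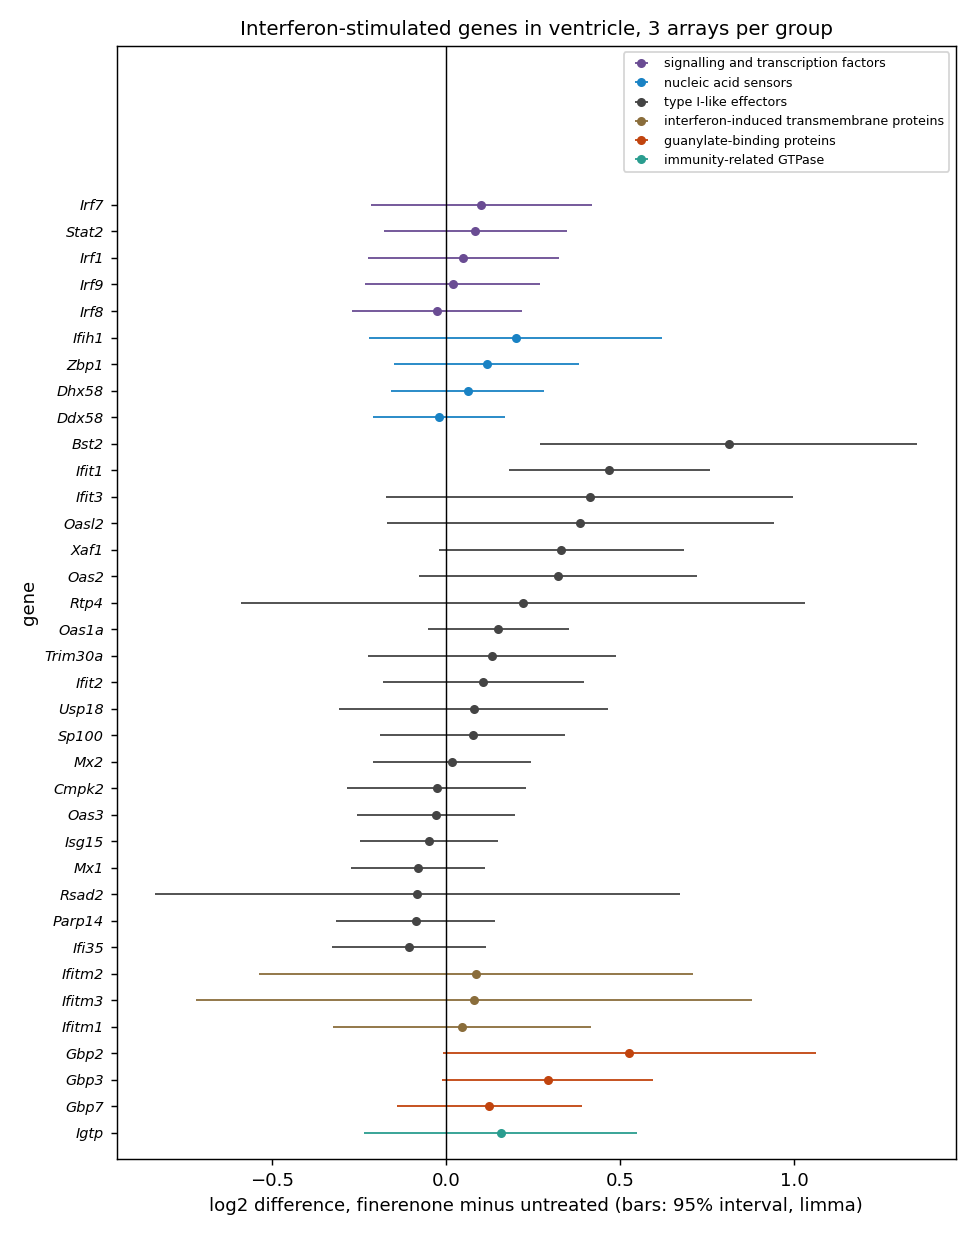
Log2 difference, finerenone minus untreated, for each of the 36 measured members, coloured by role, with 95% intervals from limma (n = 3 arrays per group). The intervals of Ifit1 (0.18 to 0.76) and Bst2 (0.27 to 1.35) lie above 0, and those of the other 34 members include 0.

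Signal level bears on which members can show a difference. The array carries 5222 negative control probe sets, whose median ran from 5.04 to 5.29 in the finerenone arrays and from 5.11 to 5.33 in the untreated arrays. Mx1, Mx2, Dhx58, Isg15 and Oas3 lay below that median on all 6 arrays, so these 5 genes were not told from background. The 95th percentile of the negative controls was not reached on any array by 27 members. They included these 5, and also Ifit1, Gbp3 and Oas1a. That percentile was exceeded on every array by Bst2, Gbp2, Gbp7, Sp100, Ifitm2 and Ifitm3. Among the 27 members with a mean of at least 6, 22 were higher and the median difference was 0.13. Among the 11346 genes at that level, 60.9% were higher, 10.8% had all finerenone arrays above all untreated ones, against 4 of the 27 members, and the median was 0.05.

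The factors that carry the interferon signal to the nucleus differed little. Stat2, a subunit of the complex that type I interferon activates, averaged 7.27 ± 0.11 in finerenone and 7.18 ± 0.15 in untreated hearts (SD, n = 3 each). Its partner Irf9 averaged 6.36 ± 0.05 in finerenone and 6.34 ± 0.17 in untreated hearts. Irf7, which amplifies interferon production and is itself induced by interferon, had 6.67, 6.86 and 6.42 in the finerenone arrays, against 6.53, 6.67 and 6.45 in the untreated arrays. The groups of Irf7 overlapped, and the difference of 0.10 ± 0.13 (SE) was smaller than its error. Irf1, a factor that interferon gamma induces strongly, differed by 0.05 ± 0.11 (SE). Irf8, a factor of the myeloid lineage, differed by -0.03 ± 0.10 (SE) and exceeded the negative control median on 3 of 6 arrays. Over these 5 factors 4 were higher, 1 was lower, and the median was 0.05.

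None of the 4 sensors of foreign or misplaced nucleic acids differed beyond its spread. Ifih1 (MDA5), a receptor for long double-stranded RNA, had 7.71, 7.88 and 7.52 in the finerenone arrays, against 7.84, 7.41 and 7.26 in the untreated arrays. Untreated replicate 1 exceeded 2 of the 3 finerenone arrays for Ifih1, and the difference of 0.20 ± 0.17 (SE) ran from 0.08 to 0.37 when each array was left out in turn. Ddx58 (RIG-I), which senses short double-stranded RNA with a 5′ triphosphate, averaged 7.22 ± 0.07 in finerenone and 7.24 ± 0.06 in untreated hearts (SD, n = 3 each). Zbp1, a sensor of Z-form nucleic acids, differed by 0.12 ± 0.11 (SE), and Dhx58 (LGP2), a regulator of both RNA sensors, by 0.06 ± 0.09. Of the 4 sensors 3 were higher, with a median difference of 0.09.

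The antiviral effectors held Ifit1 and Bst2, the members with the smallest p-values. Ifit1, which binds viral RNA that lacks the host cap methylation, had 7.02, 6.73 and 6.71 in the finerenone arrays, against 6.50, 6.26 and 6.29 in the untreated arrays. Its signal exceeded the negative control median on all 6 arrays and their 95th percentile on none. Each finerenone array was above each untreated one, and the difference was 0.47 ± 0.12 (SE), a fold of 1.38. Without any 1 array it ran from 0.37 to 0.54. Bst2 (tetherin), a membrane protein that holds budding virus particles at the cell surface, had 11.98, 12.03 and 11.32 in the finerenone arrays, against 10.96, 11.23 and 10.71 in the untreated arrays. Finerenone replicate 3 stood close to untreated replicate 2, the groups did not overlap, and the difference was 0.81 ± 0.22 (SE), a fold of 1.76. It ran from 0.68 to 1.04 with each array left out, and was 0.81 without untreated replicate 1. The adjusted p of both genes in limma was 0.597.

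Ifit3 and Ifit2, relatives of Ifit1 on chromosome 19, had overlapping groups. Ifit3, which lies 3 protein-coding genes away and whose product forms a complex with Ifit1 protein, had 7.52, 8.11 and 7.56 in the finerenone arrays, against 7.51, 7.57 and 6.87 in the untreated arrays. Finerenone replicate 2 was its highest array and untreated replicate 3 its lowest, and the difference of 0.41 ± 0.24 (SE) became 0.22 when finerenone replicate 2 was omitted and 0.19 when untreated replicate 3 was. Ifit2, next to Ifit3, had 7.21, 7.11 and 6.88 in the finerenone arrays, against 6.93, 7.10 and 6.84 in the untreated arrays, a difference of 0.11 ± 0.12 (SE) with overlapping groups.

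The oligoadenylate synthetases make the messenger that activates RNase L. Oas1a had 6.42, 6.25 and 6.22 in the finerenone arrays, against 6.13, 6.18 and 6.13 in the untreated arrays. The groups of Oas1a did not overlap, but the difference was only 0.15 ± 0.08 (SE), and 0.09 without finerenone replicate 1. Oas2 had 7.41, 7.67 and 7.65 in the finerenone arrays, against 7.47, 6.91 and 7.37 in the untreated arrays. Untreated replicate 2 was the low array of Oas2, and without it the difference of 0.32 ± 0.17 (SE) was 0.15. Oas3, the direct neighbour of Oas2 on chromosome 5, averaged 4.09 ± 0.05 in finerenone and 4.11 ± 0.13 in untreated hearts (SD, n = 3 each), below the negative control median. Oasl2, a family member that carries ubiquitin-like domains, had 6.82, 7.34 and 6.59 in the finerenone arrays, against 6.61, 6.77 and 6.20 in the untreated arrays. Finerenone replicate 2 was its highest array and untreated replicate 3 its lowest. Omitting the first of these arrays left 0.18 of the difference of 0.39 ± 0.23 (SE), and omitting the other left 0.22.

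Xaf1, a proapoptotic gene, had 8.22, 8.29 and 7.84 in the finerenone arrays, against 7.96, 7.70 and 7.70 in the untreated arrays. Finerenone replicate 3 lay within the untreated range, and the difference was 0.33 ± 0.15 (SE). Ifi35, a leucine zipper protein, was the member with the most negative difference, with 6.54, 6.54 and 6.43 in the finerenone arrays, against 6.49, 6.73 and 6.60 in the untreated arrays. Its groups overlapped at untreated replicate 1, and the difference was -0.11 ± 0.09 (SE), or -0.04 without untreated replicate 2.

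Several effectors did not differ beyond their spread. Isg15, the ubiquitin-like modifier of the pathway, had 4.82, 4.74 and 4.89 in the finerenone arrays, against 4.79, 4.90 and 4.90 in the untreated arrays. The difference of -0.05 had an interval from -0.25 to 0.15, at a signal below the negative control median. Usp18, the protease that removes Isg15 from proteins, differed by 0.08 ± 0.16 (SE). Rsad2 (viperin), an enzyme that makes a chain-terminating nucleotide, had 8.77, 8.49 and 7.72 in the finerenone arrays, against 8.68, 7.96 and 8.59 in the untreated arrays. Its arrays spread more widely within a group than the groups differed (-0.08, interval -0.84 to 0.67). Cmpk2, the nucleotide kinase next to Rsad2 on chromosome 12, differed by -0.03 ± 0.11 (SE). Rtp4, a chaperone of membrane receptors, had 6.37, 6.72 and 5.86 in the finerenone arrays, against 5.62, 6.74 and 5.91 in the untreated arrays. Its difference of 0.22 ± 0.34 (SE) was -0.01 without untreated replicate 1.

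The rest of the effectors were Trim30a, an inhibitor of inflammatory signalling (0.13 ± 0.15, SE), Sp100, a nuclear body protein (0.08 ± 0.11), Parp14, an ADP-ribosyltransferase (-0.09 ± 0.10), and the antiviral GTPases Mx1 (-0.08 ± 0.08) and Mx2 (0.02 ± 0.09). Over all 20 measured effectors, 13 were higher, 7 were lower and the median difference was 0.09.

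**Figure D2:**
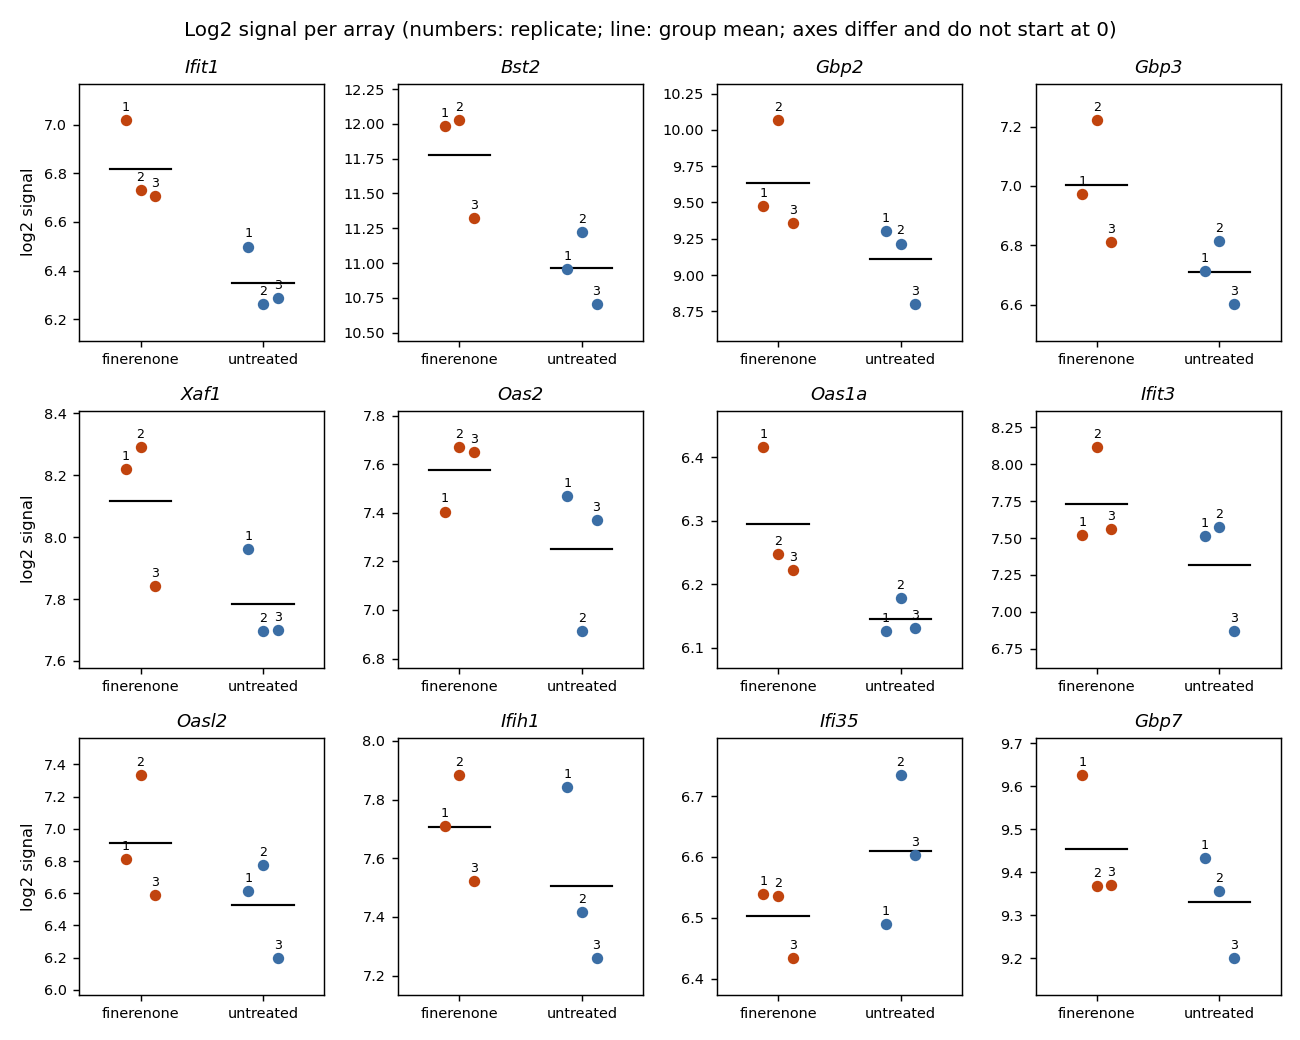
Log2 signal of each array for the 12 members with the smallest p-values, finerenone left and untreated right, with the replicate number at each point and a line at the group mean (n = 3 each; axes differ between panels and do not start at 0). The groups separate for Ifit1, Bst2, Gbp2 and Oas1a, touch for Gbp3, and overlap for the other 7.

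The interferon-induced transmembrane proteins, which stop viruses from fusing with cell membranes, did not differ beyond their spread. Ifitm3 had 13.12, 13.92 and 13.04 in the finerenone arrays, against 13.73, 13.40 and 12.71 in the untreated arrays. Ifitm2 had 10.39, 11.11 and 10.30 in the finerenone arrays, against 10.87, 10.45 and 10.23 in the untreated arrays. The arrays had the same order in both genes, with finerenone replicate 2 highest and untreated replicate 3 lowest. Ifitm2 and Ifitm3 are close paralogs on chromosome 7, with Ifitm1 between them, and whether the probes of one also bind transcripts of the other was not tested. The differences were 0.08 ± 0.33 (SE) for Ifitm3, 0.09 ± 0.26 for Ifitm2 and 0.05 ± 0.15 for Ifitm1, so the errors exceeded the differences in all 3, and after quantile normalization Ifitm3 was at -0.06 and Ifitm2 at -0.0017.

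Gbp2, Gbp3 and Gbp7, the guanylate-binding proteins measured among the members, had higher mean signal in finerenone hearts, and none passed the test. These large GTPases coat vacuoles and bacteria inside cells. Gbp2 had 9.47, 10.07 and 9.36 in the finerenone arrays, against 9.30, 9.22 and 8.80 in the untreated arrays. Finerenone replicate 2 stood above the other arrays, the groups did not overlap, and the difference was 0.53 ± 0.22 (SE; adjusted p = 0.644 in limma). Without finerenone replicate 2 it was 0.31, and its interval over all arrays ran from -0.01 to 1.06. Gbp3 had 6.97, 7.22 and 6.81 in the finerenone arrays, against 6.71, 6.81 and 6.60 in the untreated arrays. Finerenone replicate 3 and untreated replicate 2 of Gbp3 were nearly equal, and the difference of 0.29 ± 0.13 (SE) was 0.18 without finerenone replicate 2. Gbp7 had 9.63, 9.37 and 9.37 in the finerenone arrays, against 9.43, 9.36 and 9.20 in the untreated arrays. Its groups overlapped, the difference was 0.13 ± 0.11 (SE), and without finerenone replicate 1 it was 0.04.

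The 3 genes lie close together on chromosome 3, Gbp7 next to Gbp3 and Gbp3 separated from Gbp2 by 1 protein-coding gene, and this family has close paralogs. The other 4 measured guanylate-binding proteins, Gbp4, Gbp8, Gbp9 and Gbp11, differed by -0.15 to 0.03 with a median of -0.06, with signs that turned for Gbp4, Gbp8 and Gbp9 when single arrays were left out. Igtp (Irgm3), an immunity-related GTPase of vacuole membranes, had 8.99, 8.54 and 8.60 in the finerenone arrays, against 8.49, 8.78 and 8.37 in the untreated arrays. Untreated replicate 2 of Igtp exceeded 2 finerenone arrays, and the difference of 0.16 ± 0.16 (SE) became 0.02 when finerenone replicate 1 was omitted and 0.27 when untreated replicate 2 was.

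The type I-like members (Stat2, Irf7, Irf9, the sensors and the effectors) were then set against the guanylate-binding proteins. Of the 27 type I-like members 19 lay above 0 and 8 below, median 0.08 (0.03 to 0.15 with each array left out), and all 3 guanylate-binding protein members lay above 0, median 0.29 (0.18 to 0.39). The type I-like median minus the guanylate-binding protein median was -0.21. It kept its sign with each array left out, from -0.27 to -0.14, the value nearest to 0 being that without finerenone replicate 2. The contrast has 3 neighbouring genes on one side, and a test over chosen members was not made. The 4 measured guanylate-binding proteins outside the list had a median of -0.06, below the type I-like median, and were not part of it. On the other side, 5 type I-like members lay below the negative control median on every array. The contrast therefore describes these listed members and not the guanylate-binding protein family.

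Averaged per array as deviations from each gene's 6-array mean, the type I-like members stood at 0.12, 0.14 and -0.07 in the finerenone arrays, against -0.03, -0.03 and -0.14 in the untreated arrays. The guanylate-binding proteins stood at 0.15, 0.35 and -0.03 in the finerenone arrays, against -0.06, -0.08 and -0.34 in the untreated arrays. Finerenone replicate 3 lay within the untreated range for the type I-like members and just above it for the guanylate-binding proteins. The lowest array of both sets was untreated replicate 3.

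**Figure D3:**
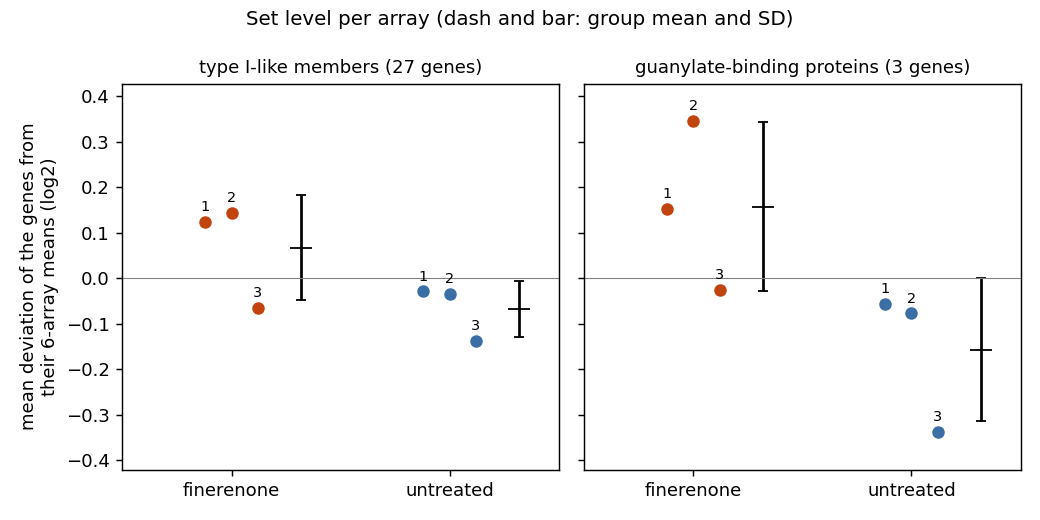
Mean deviation of the genes of each set from their 6-array means (log2), per array, finerenone left and untreated right, with the group mean and SD (n = 3 arrays each). Finerenone replicates 1 and 2 are the highest arrays in both sets (0.12 and 0.14 for the 27 type I-like members, 0.15 and 0.35 for the 3 guanylate-binding proteins), and finerenone replicate 3 (-0.07 and -0.03) lies near the untreated arrays.

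The members' levels also varied between mice of a group. Finerenone replicate 2 was the highest array for 15 of the 36 members and finerenone replicate 1 for 9, while finerenone replicate 3 was highest for 0. Untreated replicate 3 was the lowest array for 14 members and finerenone replicate 3 for 6. Over all genes, finerenone replicate 2 was highest for 22.7% and untreated replicate 3 lowest for 18.5%. Above their own 6-array mean were 24, 25 and 12 members in the finerenone arrays, against 15, 17 and 8 in the untreated arrays. The median difference of the members was 0.04 without finerenone replicate 2 and 0.18 without finerenone replicate 3. Omitting untreated replicate 2 gave 0.13, and between 22 and 30 of the 36 members were higher with each array left out.

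**Figure D4:**
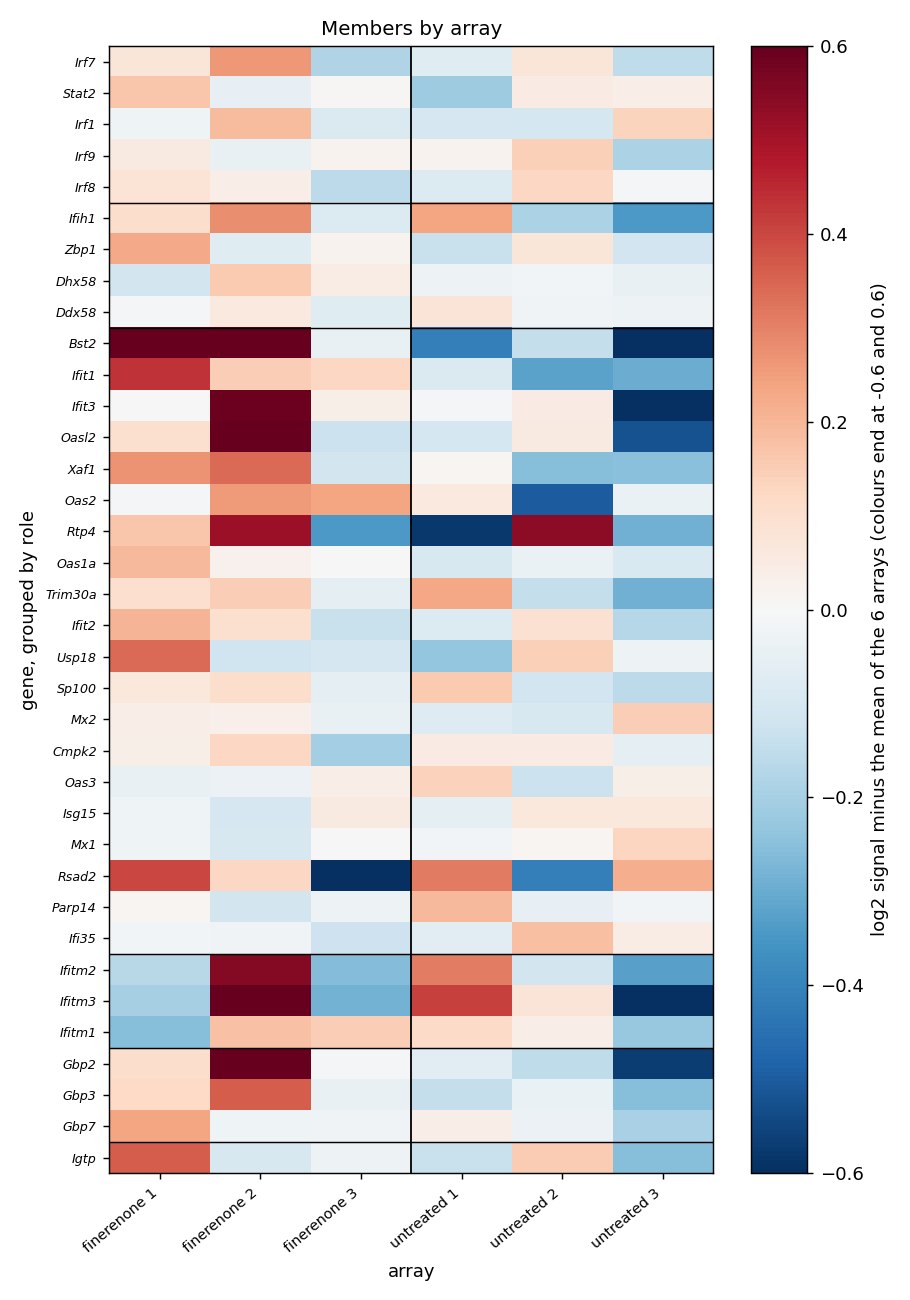
Log2 signal of each measured member minus its mean over the 6 arrays, with genes grouped by role down the page and the finerenone arrays left of the untreated arrays. More members lie above their mean in finerenone replicates 1 and 2 (24 and 25 of 36) than in any other array, and fewest in untreated replicate 3 (8 of 36).

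Further genes of the interferon system were read from 8 lists, and limma called 0 genes in each. Below the negative control median on all 6 arrays lay 1 of 6 receptor subunits and 2 of 9 kinases, STATs and negative regulators. The same held for 3 of 15 induction pathway genes, 2 of 7 inducible chemokines and 4 of 37 further type I interferon-inducible genes. The counts and medians of these lists include such genes. All 11 measured interferon ligands, Ifnb1, Ifng and Ifnl2 among them, lay below the negative control median on all 6 arrays, so no ligand was told from background, and their differences, 4 positive and 7 negative, had a median of -0.07 (-0.12 to -0.01 with each array left out). Among the 6 receptor subunits 4 lay above 0 and 2 below, median 0.17 (0.09 to 0.24 with each array left out). Ifnar2 and Ifnar1, the pair that binds type I interferon, differed by 0.25 ± 0.15 and -0.13 ± 0.12 (SE). Ifnar2 was at 0.10 without finerenone replicate 2, and Ifnar1 ran from -0.23 to -0.08 with each array left out. Il10rb, shared by the lambda interferon and interleukin-10 receptors, differed by 0.21 ± 0.11, and by 0.12 without untreated replicate 1. The 9 kinases, STATs and negative regulators split into 4 higher and 5 lower, median -0.02 (-0.06 to 0.06 with each array left out). Tyk2, a kinase on the type I receptor, differed by 0.22 ± 0.10 (SE) and Socs1, a feedback inhibitor of the kinases, by -0.18 ± 0.10 (-0.10 without finerenone replicate 3), both without overlap of the groups.

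Upstream of interferon, the induction pathway had 9 positive and 6 negative differences among 15 genes, median 0.05. Adar, which edits double-stranded RNA and so hides it from MDA5, averaged 6.48 ± 0.11 in finerenone hearts, against 6.67 ± 0.06 in untreated hearts (SD, n = 3 each), so that it differed by -0.18 ± 0.09 (SE) with no overlap. Samhd1, a nucleotide hydrolase, differed by 0.14 ± 0.08. Of 11 genes of antigen processing and MHC class I, 7 had positive and 4 negative differences, and their median of 0.11 ran from -0.01 to 0.12 with each array left out. The 8 other interferon-inducible GTPases had 3 positive and 5 negative differences, median -0.05, a sign that turned with single arrays left out (-0.12 to 0.11). For 7 inducible chemokines the split was 3 to 4, and the median of -0.01 ran from -0.12 to 0.21 with each array left out. Ccl12, a monocyte attractant, was apart from the rest of this list, with 7.15, 7.005 and 7.28 in the finerenone arrays, against 5.46, 6.51 and 5.80 in the untreated arrays. Its groups did not overlap, and the difference of 1.23 ± 0.26 (SE), above that of any member, ran from 0.99 to 1.52 with each array left out. Ccl12 was the 1 chemokine at an unadjusted p below 0.05, also with each array left out, and its adjusted p in limma was 0.597. Ccl5, a T cell and monocyte attractant, differed by -0.34 ± 0.20 (SE; -0.56 to -0.21 with each array left out) and Ccl7, another monocyte attractant, by 0.43 ± 0.26 (0.21 to 0.62).

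The longest list held 37 further type I interferon-inducible genes, 21 higher and 16 lower, with a median of 0.06. At an unadjusted p below 0.05 it had 5 higher and 0 lower genes, against 5.69% and 2.12% of all genes. Ifi204, a PYHIN protein that binds nucleic acids, had 11.32, 11.52 and 11.27 in the finerenone arrays, against 10.55, 10.91 and 10.56 in the untreated arrays. The groups did not overlap, and the difference of 0.70 ± 0.13 (SE) ran from 0.62 to 0.82 with each array left out. Ifi211, of the same family, had 11.34, 11.61 and 11.56 in the finerenone arrays, against 10.83, 11.19 and 10.80 in the untreated arrays, a difference of 0.57 ± 0.14. PYHIN genes have close paralogs, so signal of Ifi204 and Ifi211 may not be separate. Herc6, the mouse ligase that attaches Isg15, averaged 7.88 ± 0.11 in finerenone hearts, against 7.44 ± 0.17 in untreated hearts (SD, n = 3 each), and differed by 0.44 ± 0.12 (SE). The adjusted p of Ifi204, Ifi211 and Herc6 was 0.597 in limma. Leaving out finerenone replicate 2 brought the list's median to 0.02, and leaving out finerenone replicate 3 to 0.10.

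**Figure D5:**
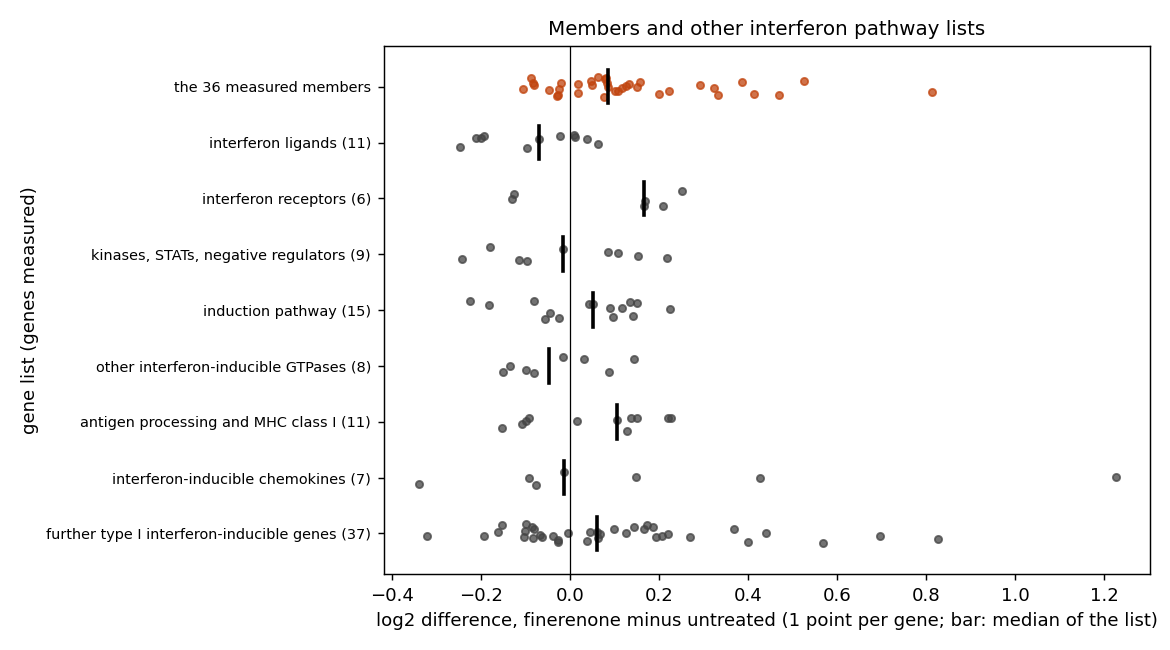
Log2 difference, finerenone minus untreated, of the 36 members (top row) and of the genes of 8 further interferon lists, 1 point per gene, with a bar at each list's median. The medians run from -0.07 for the 11 ligands to 0.17 for the 6 receptor subunits, with 0.09 for the members.

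Ventricle is a mixture of cells, and in bulk tissue a change in the number of cells of a type cannot be told apart from a change in RNA per cell. Of the macrophage and monocyte markers 13 of 15 had higher mean signal in finerenone hearts with a median of 0.18 (0.09 without finerenone replicate 3, 0.36 without finerenone replicate 2), and 6 of 15 exceeded the 95th percentile of the negative controls on every array. The log2 of the summed signal of the 15 markers was 17.01 to 17.31 in the finerenone arrays, against 16.62 to 17.05 in the untreated arrays. That sum is set largely by the brightest probe sets, Lyz2 (mean 16.11 in finerenone and 15.36 in untreated arrays) and Ly6c2 (15.96 in finerenone and 15.99 in untreated arrays), and says little of the other 13 markers. At an unadjusted p below 0.05 in limma 3 of the 15 were higher, Ccr2, Fcgr1 and Lyz2, and 0 lower, against 5.69% and 2.12% of all genes. Ccr2 differed by 0.51 ± 0.14 and Fcgr1 by 0.60 ± 0.20 (SE). Both had finerenone arrays all above the untreated ones, against 8.17% of all genes. Neither reached the 95th percentile of the negative controls on any array, and 0 markers passed the adjusted threshold. The per-array means of the 15 markers were 9.14, 8.92 and 9.09 in the finerenone arrays, against 8.83, 8.97 and 8.65 in the untreated arrays. The arrays ranked differently for the members, whose mean deviation was 0.10, 0.18 and -0.07 in the finerenone arrays, against -0.01, -0.03 and -0.17 in the untreated arrays. Finerenone replicate 2 was highest for the members and lay below untreated replicate 2 for the markers, while finerenone replicate 3 was second for the markers and lay below untreated replicates 1 and 2 for the members. Their part in the members' differences was not tested.

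Markers of other immune cells were mostly at or near background. All 6 plasmacytoid dendritic cell markers, the cells known for the largest interferon output, stayed under the 95th percentile of the negative controls on every array, with a summed log2 signal of 6.89 to 6.97 in finerenone and 6.90 to 7.10 in untreated arrays. The 13 T and NK cell markers, the 6 B cell markers and the 8 conventional dendritic cell markers also stayed under it on every array. Their medians were -0.06, -0.12 and 0.02. Of the conventional dendritic cell markers, 6 lay below the negative control median on every array and 2, Cd209a and Zbtb46, above it. Cd209a differed by 0.57 ± 0.20 (SE) and Zbtb46 by -0.40 ± 0.16, both without overlap of the groups, so the median of this list joins opposite differences. The 9 neutrophil and mast cell markers had a median of 0.00 (-0.17 to 0.01 with each array left out), with 3 higher. Of these 9, 2 lay below the negative control median on every array. Mcpt4 and Cpa3, of mast cells, differed by -0.44 ± 0.33 and -0.53 ± 0.54 (SE). The highest difference was that of S100a8, of neutrophils, 0.33 ± 0.90, so this median too joins opposite differences with wide errors. All 10 endothelial markers were lower, with a median of -0.29 (-0.50 to -0.11 with each array left out) and per-array means of 11.66 to 11.88 in finerenone and 11.87 to 12.44 in untreated arrays. Of 8 fibroblast markers 7 were higher with a median of 0.19, which was 0.08 without untreated replicate 3 and 0.32 without untreated replicate 2. Of 8 smooth muscle and pericyte markers 1 was higher with a median of -0.12, which was -0.08 with 4 of 8 higher without untreated replicate 1, and -0.28 without untreated replicate 2. The 9 cardiomyocyte markers exceeded the 95th percentile on every array, with per-array means of 17.31 to 17.35 in finerenone and 17.07 to 17.46 in untreated arrays. The part of these cell types in the members' differences was not tested.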

How the data were processed

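RNA of 6 mouse ventricles was hybridised to 1 Affymetrix array each. The deposited values are log2 signals per probe set, which the authors obtained by RMA. The submitters' processing notes name the programs as Transcriptome Analysis Console and Affymetrix Expression Console, and their versions and annotation build were not given in sources used here. RNA integrity numbers were above 7.3, per the labels. Groups and replicate numbers came from the sample titles, and the labels call the mice biological replicates assigned at random. Signal stays on the log2 scale, apart from the marker sums, which add unlogged signals. Levels were set against the negative controls and ranked to pick members, and are not read as transcript amounts of different genes. Having 3 arrays in each group limits how precisely a difference is known.

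Of 72688 probe sets, 65956 were transcript clusters and 6732 controls. Symbols came from the platform annotation, updated through RefSeq (GRCm38.p6): 1 symbol for 30604 clusters, several for 2146 and none for 33206, the last 2 kinds staying unnamed. For 429 genes with several clusters the brightest was kept. No filter on dim genes was applied. Per gene, limma 3.58.1 (lmFit, then eBayes with no trend and no covariate, in R 4.3.3) gave a two-sided test of finerenone minus untreated, with Benjamini-Hochberg adjustment over all 30063 genes. The scripts were tested on simulated data. Lists are described by counts and medians only. Tables and plots were made with pandas 2.3.3 and matplotlib 3.10.9 in Python 3.11.15.

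The members and lists were chosen with earlier results of these data known. Values of every array are given for the 12 members with the smallest p, the 3 with the highest signal, the guanylate-binding proteins, and, beyond that rule, for Irf7, Ifit2, Isg15, Rsad2, Rtp4 and Igtp, chosen after their values were seen. At most 3 genes of a further list are named, by smallest p, though not always all 3. Ifnb1, Ifnl2, Ifnar1, Gbp4, Gbp8, Gbp9, Ly6c2, S100a8, Tnnt2, Myh6 and Pln are named outside that rule, after their values were seen. Alternatives were quantile normalization, median centring, cyclic loess, the replicate number as a block, array weights, a robust prior with trend, averaging over clusters, filters on dim genes, and each array left out in turn.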

Additional observations from a re-analysis of the deposited data

How the results depend on the processing

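No member and no other gene passed the adjusted threshold in limma under any of the 15 alternatives, where the smallest adjusted p of a member was 0.400. Leaving out each array in turn gave a median difference of the members of 0.04 to 0.18, 22 to 30 members higher, and a type I-like minus guanylate-binding protein median of -0.27 to -0.14. Under the other settings the median ran from 0.07 to 0.13 and that contrast from -0.21 to -0.17. Of 36 members, 21 kept their sign in all alternatives. With all 6 arrays the sign turned for Ifitm3 (-0.0061 after cyclic loess, -0.059 after quantile normalization), Ifitm2 (-0.0017 after quantile normalization) and Mx2 (-0.0097 with array weights). With an array left out it turned for 15 members, whose log2 differences ran from -0.097 to 0.068 for Cmpk2, -0.054 to 0.014 for Ddx58, -0.055 to 0.187 for Ifitm1, -0.17 to 0.26 for Ifitm2, -0.205 to 0.31 for Ifitm3, -0.032 to 0.13 for Irf1, -0.0029 to 0.22 for Irf7, -0.073 to 0.047 for Irf8, -0.071 to 0.095 for Irf9, -0.026 to 0.095 for Mx2, -0.0997 to 0.033 for Oas3, -0.31 to 0.22 for Rsad2, -0.012 to 0.55 for Rtp4, -0.0019 to 0.13 for Stat2 and -0.070 to 0.17 for Usp18. The cause was not tested. At an unadjusted p below 0.05 there were 2 members, 3 after median centring, 5 with array weights and 2 to 6 with an array left out. Of all 30063 genes, 2347 were at that level, 2178 after median centring, 2495 with array weights and 1685 to 2783 with an array left out. The filters on dim genes, which test fewer genes, gave 1306 and 1538. Of the 2347 genes 72.9% were higher, and the share was 59.2% after quantile normalization. Same-numbered arrays deviated together with correlations of -0.15, 0.06 and 0.06, and differently numbered arrays with -0.17 to 0.12. These values show no pairing by number. Deviations from a mean of 3 arrays depend on one another, so they cannot exclude a pairing, and the labels state none. With the replicate number as a block, the member median stayed at 0.09 and 0 members passed the adjusted threshold. At an unadjusted p below 0.05 in limma there were then 6 of 36 members and 2312 of 30063 genes. Members below the negative control median, and 3 arrays per group, limit what could be detected.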
